A study of Mus musculus with 6 samples.

Results

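The 28 genes described here encode the enzymes that make cholesterol and fatty acids, together with the proteins that sense sterols and set the level of those enzymes. They were chosen by name from the 24421 genes of a deposited RNA sequencing table of 4T1 cells, and all 28 were present. By role, 7 act in the mevalonate pathway, 11 in the squalene and sterol steps, 4 are regulators of the SREBP system, 1 is a sterol carrier and 5 make fatty acids. 4T1 is an epithelial line from a mouse mammary adenocarcinoma, grown here in serum-containing medium. The controls carried a control short hairpin RNA (shCTL), and the other group carried one directed against HSF1, heat shock factor 1, a transcription factor known for inducing chaperone genes (shHSF1). Each group held 3 libraries, replicates 1 to 3, of the same line. The labels give no hairpin sequence and do not say whether replicates were separate cultures, and the spread behind each p-value is that between libraries and may be technical. In such bulk RNA, fewer cells of a type and less RNA per cell cannot be told apart.

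Cholesterol is built from acetyl-CoA through mevalonate, farnesyl diphosphate, squalene and lanosterol. Fatty acids are built from citrate-derived acetyl-CoA by carboxylation, chain extension and desaturation. Most of these genes are known targets of the SREBP transcription factors, encoded by Srebf1 and Srebf2. Scap carries SREBP precursors out of the endoplasmic reticulum when sterols are scarce, and Insig1 holds them back when sterols are plentiful. Released SREBPs bind sterol regulatory elements, usually beside sites of the factor NF-Y.

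Promoter windows from RefSeq (GRCm38.p6, the assembly of the files' mm10 build) were matched by symbol for 22 of the 28 genes. Each window runs from 250 bases before to 50 bases after an annotated start. Fdps, Fdft1, Sqle, Stard4, Scd1 and Scd2 had no entry. The NF-Y box CCAAT, searched on both strands, stood in a window of 19 of the 22 genes (86.4%), against 43.4% of 8582 tested genes with a window and 41.1% of all 27025 genes with one. Acaca, Acat2 and Scap had none in these windows. A gene counted if any of its windows held the box. By window, 20 of the 28 windows of the 22 genes held it, against 37.4% of all 32851 windows. For Pmvk it stood only in a window before the counted gene (from 89454291, gene from 89459118). For Dhcr7 it stood only in a window inside the gene (from 143829964, gene from 143823167). Srebf1, on the minus strand, held it only in a window before the counted gene (from 60222532, gene up to 60220604) and in another inside it (from 60210422). Its window at the counted start (from 60220578) held none. The sterol regulatory element core TCACNCCAC was found in 1 of the 22 genes, Hmgcs1, and in 1.44% of all genes with a window. The E-box CANNTG, whose letters can overlap the NF-Y box, stood in 77.3% of the 22, in 66.3% of the tested genes and in 75.0% of all genes. A match is a description of the letters and not a site. The 5 windows below are of Hmgcs1, which held the sterol element, of the 3 matched genes with the widest range over the libraries, Idi1, Cyp51 and Hsd17b7, and of Insig1, which varied the other way. Capitals mark TCACNCCAC and CCAAT on either strand (CCAAT on the other strand reads ATTGG).
Hmgcs1, chr13:119690101-119690400, plus strand: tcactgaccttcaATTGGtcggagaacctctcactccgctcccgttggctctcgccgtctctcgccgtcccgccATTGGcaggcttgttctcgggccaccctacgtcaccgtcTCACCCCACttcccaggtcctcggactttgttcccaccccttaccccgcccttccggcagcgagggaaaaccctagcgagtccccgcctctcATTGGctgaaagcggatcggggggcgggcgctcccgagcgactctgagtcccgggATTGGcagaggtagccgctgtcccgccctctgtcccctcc
Idi1, chr13:8885356-8885655, plus strand: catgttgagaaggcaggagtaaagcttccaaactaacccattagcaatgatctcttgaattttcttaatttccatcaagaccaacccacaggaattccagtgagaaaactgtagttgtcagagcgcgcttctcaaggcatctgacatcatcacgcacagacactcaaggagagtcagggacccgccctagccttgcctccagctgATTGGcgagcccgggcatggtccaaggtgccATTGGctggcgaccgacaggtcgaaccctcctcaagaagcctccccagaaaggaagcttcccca
Cyp51, chr5:4104648-4104947, minus strand: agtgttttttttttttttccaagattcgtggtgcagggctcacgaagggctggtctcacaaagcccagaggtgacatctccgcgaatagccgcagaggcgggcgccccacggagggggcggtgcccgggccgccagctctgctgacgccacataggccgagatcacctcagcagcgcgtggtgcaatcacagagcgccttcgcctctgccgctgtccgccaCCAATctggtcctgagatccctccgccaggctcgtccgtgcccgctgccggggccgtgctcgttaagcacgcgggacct
Hsd17b7, chr1:169969156-169969455, minus strand: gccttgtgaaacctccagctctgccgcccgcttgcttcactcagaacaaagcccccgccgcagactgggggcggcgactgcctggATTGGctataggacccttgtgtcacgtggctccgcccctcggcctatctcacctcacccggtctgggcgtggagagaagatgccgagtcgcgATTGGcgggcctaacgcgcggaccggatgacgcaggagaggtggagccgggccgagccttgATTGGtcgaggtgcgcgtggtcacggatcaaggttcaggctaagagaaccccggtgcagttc
Insig1, chr5:28071162-28071461, plus strand: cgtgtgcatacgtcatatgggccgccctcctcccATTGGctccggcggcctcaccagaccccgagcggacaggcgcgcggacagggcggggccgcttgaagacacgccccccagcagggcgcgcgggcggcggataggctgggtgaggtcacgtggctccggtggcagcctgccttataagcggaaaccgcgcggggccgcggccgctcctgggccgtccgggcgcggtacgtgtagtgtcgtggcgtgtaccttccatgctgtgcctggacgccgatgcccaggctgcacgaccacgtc
In the Hmgcs1 window the sterol element began 137 bases before the start, and NF-Y boxes began 237, 176 and 45 bases before it and 10 bases after it. Idi1 had boxes 45 and 14 bases before the start, Cyp51 had 1 at 29 bases, Hsd17b7 had boxes at 165, 73 and 12 bases, and Insig1 had 1 at 216 bases.

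Reads assigned to genes came to between 23750025 and 36903175 per library, so 3 reads of a 2 kb gene equalled 0.041 to 0.063 RPKM (assigned reads scaled by gene length and library total). The target of the hairpin, Hsf1, measured 18.4, 20.3 and 20.1 RPKM with the control hairpin against 23.2, 13.8 and 15.4 RPKM with the HSF1 hairpin. The library labelled shHSF1 replicate 1 therefore held more Hsf1 than any control (log2 difference over 6 libraries −0.20, SE 0.21, limma adjusted p = 0.810; exact two-sided permutation p = 0.4, where 0.1 is the smallest that 3 against 3 can give), and every direction below rests on that label as given. With both replicate 1 libraries left out it came to −0.46 (SE 0.099, limma adjusted p = 0.0433). That fit drops the shHSF1 library with more Hsf1 than any control, so it is not an independent check of the hairpin. On the first principal component (53.8% of the variance) the replicate 1 libraries lay away from the rest, at −47.0 and −38.5 against 13.4 to 30.7. Of the epithelial markers, Krt8, Krt18, Krt7, Krt19, Cdh1, Cldn4 and Epcam were detected at 8.84 RPKM or more in every library, while Cldn7 did not exceed 0.203 RPKM. The T cell marker Cd3e and the adipocyte markers Adipoq, Plin1, Cidec and Lep had at most 1 read in any library, and Lum, Thy1 and Kdr had 0. Pparg, the other adipocyte marker listed, had 16, 5 and 2 reads with the control hairpin against 0, 3 and 1 with the HSF1 hairpin.

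The first comparison asked whether the HSF1 hairpin changed the level of the lipid synthesis genes. All 28 passed the filter on low values, and none passed the test (0 of 28 at a limma adjusted p of 0.05, with 0 of 28 at an unadjusted p under 0.05). Over all 11386 genes tested, 3 passed (0.0263%) and 1296 had an unadjusted p under 0.05 (11.4%). The log2 differences, shHSF1 minus shCTL on the log2(RPKM + 0.5) scale, ran from −0.34 for Scd2 to 0.49 for Acly, with adjusted p between 0.535 and 0.998. Above 0 were 20 of the 28, beside 6500 of the 11386 genes tested. The median of the 28 was 0.18, beside 0.052 over all genes tested. That median changed sign with single libraries: it was −0.25 without shCTL replicate 1 and −0.065 without shHSF1 replicate 3, and 0.41 without shCTL replicate 3. The groups did not overlap for 1 of the 28, Tm7sf2 (3.57%), against 20.0% of all genes tested.

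The 28 genes also gave no call where more genes passed in the table as a whole. Blocking on the replicate number gave 20 calls in the whole table (0.176%) and none among the 28, whose limma adjusted p started at 0.124 (3 of 28 at an unadjusted p under 0.05, beside 23.8%). Without both replicate 1 libraries, 1262 genes passed (11.1%) and none of the 28 did, although 3 had an unadjusted p under 0.05, beside 32.3% of all genes tested. With replicate 1 as a batch covariate, 642 passed (5.64%), again with none of the 28 (2 at an unadjusted p under 0.05, beside 27.6%). Count-based fits (voom on whole reads) called 11 genes (0.0966%) without a block and 106 with it (0.931%), and 0 of the 28 in each. A missed threshold does not show equal levels. Over all 6 libraries without a block, the 95% intervals of the 28 differences all spanned 0. Of these, 12 lay wholly between −1 and 1, that is within a doubling or halving. Without both replicate 1 libraries 25 of 28 did, and the 3 that reached further, Idi1, Msmo1 and Scd2, had lower bounds of −1.06, −1.03 and −1.12. In that smaller fit the intervals of Pmvk (0.036 to 0.73), Fdft1 (0.10 to 0.64) and Scd2 (−1.12 to −0.12) did not reach 0, but their limma adjusted p values were 0.129, 0.0814 and 0.102. With the replicate block the intervals of Acat2 (0.046 to 0.645), Fdft1 (0.13 to 0.60) and Acly (0.041 to 0.95) did not reach 0. Their limma adjusted p values in that fit were 0.174, 0.124 and 0.188.

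**Figure D1:**
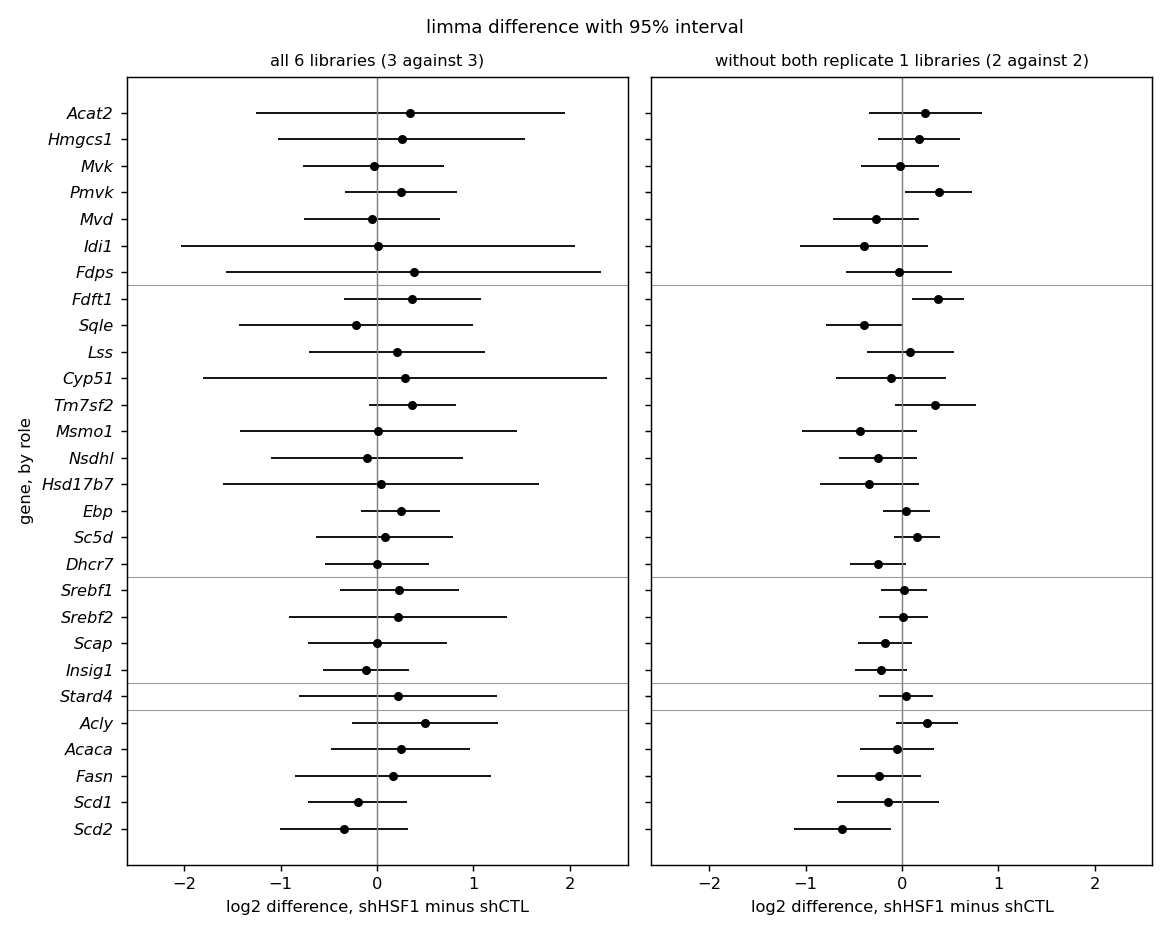
Log2 difference of each gene, shHSF1 minus shCTL, as a point with its 95% interval from limma (x axis), for the 28 genes in order of role (y axis, roles split by grey lines), over all 6 libraries on the left and without both replicate 1 libraries on the right. All 28 intervals on the left span 0, and the widest are those of Cyp51 and Idi1.

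Levels differed between replicate numbers. In 20 of the 28 genes (71.4%) the replicate 1 library lay below replicates 2 and 3 in both groups, beside 25.0% of all genes tested. In 7 of the 28 (25.0%) the mean of replicates 2 and 3 was at least 2-fold above replicate 1 in both groups, beside 3.01% of all genes tested. The median of replicate 1 minus the mean of replicates 2 and 3 was −1.03 in shCTL and −0.71 in shHSF1 on the log2 scale over the 28, against 0.044 and 0.12 over all genes tested. Of the 28 genes, 21 had their lowest value in shCTL replicate 1, and 24 had their highest in replicate 3 of either group, 11 in shCTL and 13 in shHSF1. The same counts were not made over all genes tested. Together the 28 took 0.249%, 0.466% and 0.541% of the assigned reads in shCTL replicates 1 to 3, and 0.338%, 0.353% and 0.487% in shHSF1. The labels do not say what a replicate number shares. Of the leukocyte markers, Cd68 was also set apart by replicate, at 19.4, 3.85 and 4.16 RPKM with the control hairpin against 23.2, 12.4 and 13.4 RPKM with the HSF1 hairpin, while Ptprc, Cd3e, Lyz2, Itgam and Csf1r did not exceed 1.02 RPKM. Cd68 was also higher with the HSF1 hairpin in all 3 pairs, by 0.25, 1.57 and 1.58 on the log2 scale (1.13, SE 0.61, limma adjusted p = 0.551), and passed without both replicate 1 libraries (1.57, SE 0.11, limma adjusted p = 0.00437). Pdgfra, of the stromal markers, was highest in shCTL replicate 1 (37.3 RPKM, against 9.93 to 21.6 RPKM in the other 5 libraries). Epcam was higher and Krt8 lower in all 3 shHSF1 libraries than in any control (log2 differences 1.21 and −0.77, limma adjusted p = 0.0930 and 0.247), as was Krt18 on the lower side (−0.50, limma adjusted p = 0.482). Epcam passed with the replicate block (limma adjusted p = 0.0494), with replicate 1 as a batch covariate (limma adjusted p = 0.0128) and without both replicate 1 libraries (limma adjusted p = 0.00854). In the last of these fits Krt8 and Cdh1 passed too, lower with the HSF1 hairpin (−0.54 and −0.98, limma adjusted p = 0.0466 and 0.0148). The part of these markers in the values of the 28 genes was not tested.

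**Figure D2:**
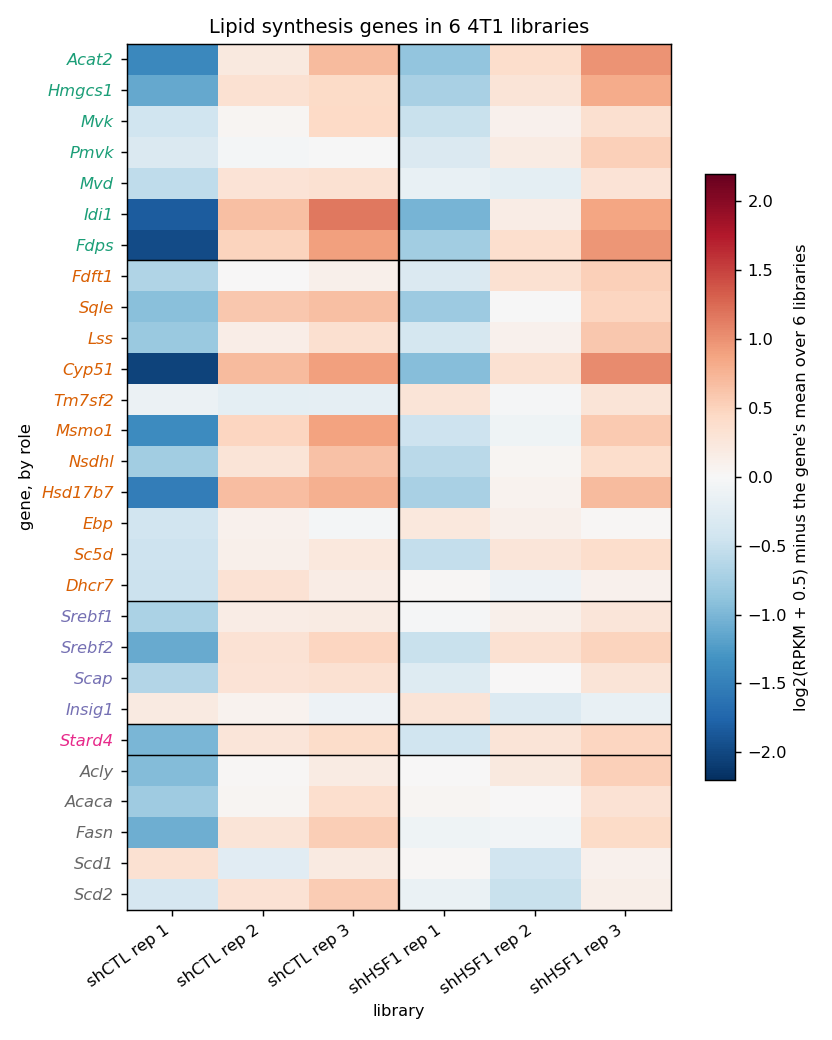
Level of each of the 28 genes (rows, coloured by role and split by black lines) in each of the 6 libraries (columns, shCTL to the left of the vertical line), as log2(RPKM + 0.5) minus the gene's own mean over the 6 libraries. The replicate 1 column is blue for most genes in both groups and deepest in shCTL, where 21 genes had their lowest value. For Insig1, Tm7sf2 and Scd1 replicate 1 lay above the mean of replicates 2 and 3 in both groups on this log2 scale. In shHSF1 alone this held for Ebp, Dhcr7 and Scd2 too.

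The same-numbered pairs went different ways. In the replicate 1 pair 24 of the 28 genes (85.7%) were higher in the library labelled shHSF1, beside 59.3% of all genes tested, with a median log2 difference of 0.46. In the replicate 2 pair 10 of 28 were higher (35.7%, beside 51.6%), with a median of −0.089, and in the replicate 3 pair 14 of 28 (beside 52.9%), with a median of −0.0047. Each pair is 1 library against 1 and has no test. A higher value in pair 1 with a lower value in pair 2 was seen in 17 of 28 genes (60.7%), against 24.9% of all genes tested. All 3 pairs were higher for 7 genes (25.0%, beside 29.4%), namely Acat2, Fdft1, Tm7sf2, Ebp, Srebf2, Stard4 and Acly, and all 3 were lower for Scd1 alone (3.57%, beside 19.9%).

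**Figure D3:**
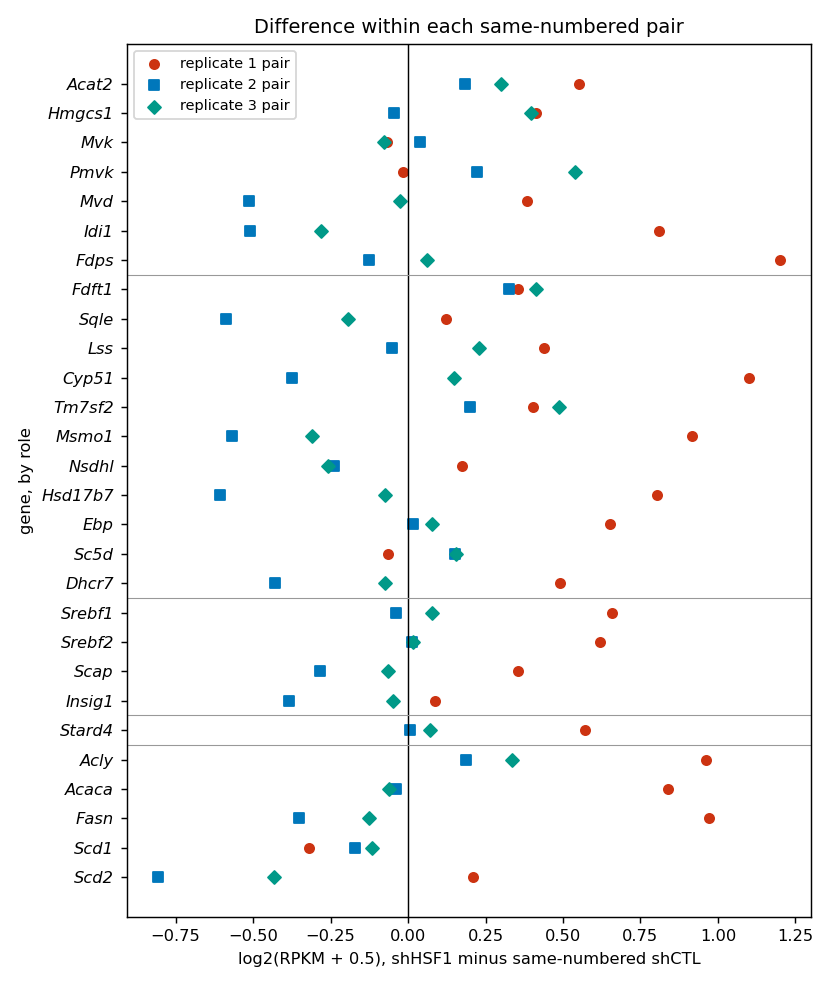
Difference in log2(RPKM + 0.5) between the shHSF1 and shCTL library of each replicate number (x axis; circles, squares and diamonds for replicates 1, 2 and 3) for the 28 genes by role (y axis). The circles lie to the right of 0 for 24 genes, and the squares for 10.

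Among the 7 genes of the mevalonate pathway none passed the test, and all 7 had a replicate 1 library below the mean of replicates 2 and 3 in both groups. Idi1, the isomerase that makes dimethylallyl diphosphate, was at 0.963, 7.77 and 11.1 RPKM with the control hairpin against 2.07, 5.31 and 9.07 RPKM with the HSF1 hairpin. Its groups overlapped, and the mean of replicates 2 and 3 was 9.82-fold the replicate 1 value in shCTL and 3.48-fold in shHSF1 (log2 difference between groups 0.0064, SE 0.85, limma adjusted p = 0.998). Fdps, which makes farnesyl diphosphate, was at 8.09, 46.8 and 62.3 RPKM with the control hairpin against 19.2, 42.9 and 65.1 RPKM with the HSF1 hairpin. Both replicate 1 libraries were again the lowest, and the pair differences were 1.2003, −0.13 and 0.06 (log2 difference 0.38, SE 0.81, limma adjusted p = 0.917). Hmgcs1, the cytosolic HMG-CoA synthase, was at 13.1, 37.1 and 39.3 RPKM with the control hairpin against 17.7, 35.9 and 51.8 RPKM with the HSF1 hairpin, a log2 difference of 0.25 (SE 0.54). Acat2, the thiolase that joins acetyl-CoA units, was at 5.77, 19.0 and 26.8 RPKM with the control hairpin against 8.70, 21.6 and 33.1 RPKM with the HSF1 hairpin. It was higher in each shHSF1 library than in its same-numbered control, and the spread within a group was 10.6 and 12.2 RPKM (SD, n = 3). Its log2 difference was 0.35 (SE 0.67, limma adjusted p = 0.906). With the replicate block the SE was 0.11 (limma adjusted p = 0.174). The mevalonate kinases Mvk and Pmvk and the decarboxylase Mvd were steadier, with a highest value at most 1.99-fold the lowest over the 6 libraries. Mvk ranged from 5.71 to 11.3 RPKM and Mvd from 3.38 to 6.66 RPKM. Pmvk stood at 7.39 ± 0.855 RPKM in shCTL and 9.11 ± 2.75 RPKM in shHSF1 (SD, n = 3).

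The 11 genes of the squalene and sterol steps also gave no call. Cyp51, the lanosterol 14-alpha-demethylase, was at 2.71, 20.9 and 24.0 RPKM with the control hairpin against 6.37, 16.0 and 26.6 RPKM with the HSF1 hairpin. Its replicates 2 and 3 averaged 8.29-fold the replicate 1 value in shCTL and 3.34-fold in shHSF1, while the difference between groups was 0.29 (SE 0.87, limma adjusted p = 0.946). Hsd17b7, a sterol 3-keto-reductase, was likewise lowest in both replicate 1 libraries, at 1.02, 6.51 and 6.96 RPKM with the control hairpin against 2.15, 4.11 and 6.59 RPKM with the HSF1 hairpin. Msmo1, the sterol C4-methyl oxidase, was the most abundant of the 11 per length, at 18.5, 67.7 and 90.3 RPKM with the control hairpin against 35.3, 45.5 and 72.7 RPKM with the HSF1 hairpin. Its pair differences were 0.92, −0.57 and −0.31, and the groups overlapped. Sqle, the squalene epoxidase, was at 19.1, 55.2 and 58.6 RPKM with the control hairpin against 20.8, 36.6 and 51.1 RPKM with the HSF1 hairpin. Without both replicate 1 libraries it differed by −0.39 (SE 0.16, limma adjusted p = 0.161). Lss, the lanosterol synthase, and Nsdhl, which removes C4 carboxyl groups, were lowest in replicate 1 of both groups and ranged from 2.64 to 7.79 RPKM and from 5.93 to 16.5 RPKM.

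Fdft1, the squalene synthase, differed by like amounts in the 3 pairs. It was at 10.8, 17.4 and 18.8 RPKM with the control hairpin against 13.9, 21.9 and 25.3 RPKM with the HSF1 hairpin, with pair differences of 0.35, 0.33 and 0.41. Both replicate 1 libraries were low and the groups overlapped, and they differed by 0.36 on the log2 scale (SE 0.30, limma adjusted p = 0.723). It had the lowest adjusted p of the 28 with the replicate block (limma adjusted p = 0.124) and without both replicate 1 libraries (0.37, SE 0.11, limma adjusted p = 0.0814), and did not pass in either. Of its exon bases, 20.9% are shared with Ctsb, a lysosomal protease gene on the opposite strand, and whether reads were counted by strand is not stated. Ctsb was at 121, 63.4 and 70.5 RPKM with the control hairpin against 116, 83.0 and 72.9 RPKM with the HSF1 hairpin (log2 difference 0.13, SE 0.29, limma adjusted p = 0.925). Its replicate 1 libraries were high where those of Fdft1 were low, and its pair differences were −0.06, 0.39 and 0.05. The part of shared reads in the Fdft1 values was not tested.

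Tm7sf2, a sterol C14-reductase and the least abundant of the 28 per length, was the 1 gene whose groups did not overlap. It was at 1.32, 1.196 and 1.22 RPKM with the control hairpin (48, 42 and 49 reads) against 1.91, 1.45 and 1.91 RPKM with the HSF1 hairpin (69, 79 and 81 reads). All shHSF1 libraries were above all shCTL libraries, by a log2 difference of 0.36 (SE 0.19) that did not pass (limma adjusted p = 0.535, the lowest of the 28 over all 6 libraries). Ebp, the sterol isomerase, was lowest in shCTL replicate 1 (12.3 RPKM) and highest in the library labelled shHSF1 replicate 1 (19.6 RPKM), and lay between 16.1 and 18.02 RPKM in the other 4. Sc5d, the lathosterol desaturase, was lowest in replicate 1 of both groups (20.8 and 19.9 RPKM, against 31.1 to 37.8 RPKM). Dhcr7, the 7-dehydrocholesterol reductase, stood at 11.7 ± 3.21 RPKM in shCTL and 11.4 ± 0.863 RPKM in shHSF1 (SD, n = 3), a log2 difference of −0.0036 (SE 0.23) with a 95% interval from −0.54 to 0.54.

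**Figure D4:**
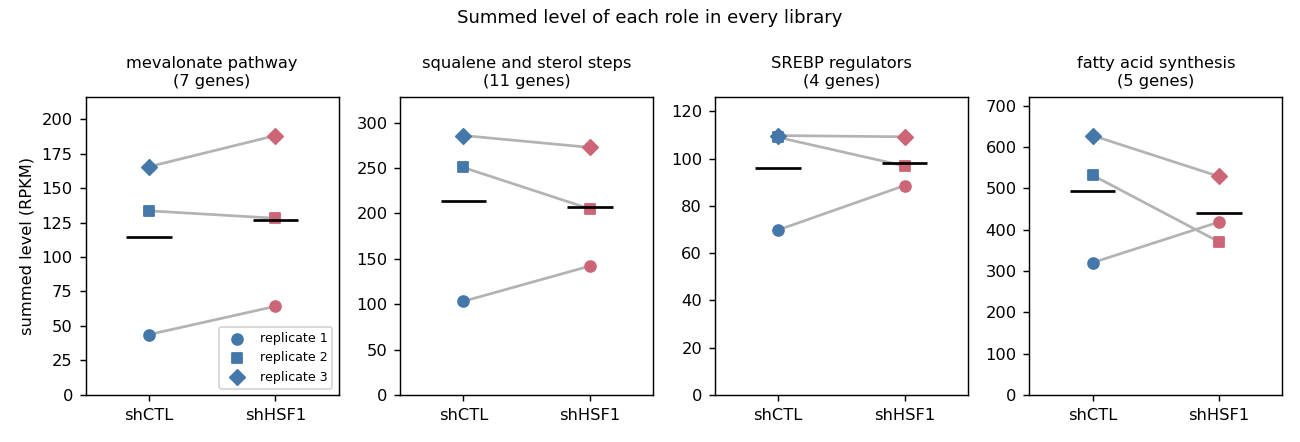
Summed RPKM of the genes of each role (y axis, from 0) in each library, with grey lines joining same-numbered libraries and black bars at the group means of 3 libraries. Replicate 1 is the lowest of its group in every panel but fatty acid synthesis, where shHSF1 replicate 2 is lower than shHSF1 replicate 1.

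None of the 4 regulators passed the test. Srebf2, whose product mainly drives sterol genes, was at 12.4, 34.4 and 38.3 RPKM with the control hairpin against 19.3, 34.7 and 38.7 RPKM with the HSF1 hairpin. Replicates 2 and 3 of the 2 groups were alike within 0.02 on the log2 scale, and without both replicate 1 libraries the difference was 0.015 with a 95% interval from −0.24 to 0.27. Srebf1, whose product mainly drives fatty acid genes, was at 10.3, 18.8 and 19.2 RPKM with the control hairpin against 16.5, 18.3 and 20.3 RPKM with the HSF1 hairpin. Scap ranged from 11.8 to 23.9 RPKM and was lowest in replicate 1 of both groups. Insig1 alone of the 28 was above both other replicates in replicate 1 of both groups (3.57%, beside 36.6% of all genes tested), at 35.3, 32.6 and 28.4 RPKM with the control hairpin against 37.5, 24.9 and 27.5 RPKM with the HSF1 hairpin. Its log2 difference was −0.11 (SE 0.19). Stard4, a cytosolic sterol carrier, was at 4.95, 12.7 and 14.0 RPKM with the control hairpin against 7.61, 12.8 and 14.8 RPKM with the HSF1 hairpin, with pair differences of 0.57, 0.01 and 0.07.

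None of the 5 fatty acid genes passed the test, and for Fasn, Acaca and Acly the replicate 1 pair differed more than the other pairs. Fasn, the fatty acid synthase, was at 28.05, 72.7 and 86.8 RPKM with the control hairpin against 55.5, 56.8 and 79.5 RPKM with the HSF1 hairpin, with pair differences of 0.97, −0.35 and −0.13. Acaca, the acetyl-CoA carboxylase, had 0.84, −0.04 and −0.06. Acly, which splits citrate into acetyl-CoA, was at 33.1, 65.2 and 73.1 RPKM with the control hairpin against 64.8, 74.2 and 92.4 RPKM with the HSF1 hairpin. It had the largest log2 difference of the 28 (0.49, SE 0.32, limma adjusted p = 0.621; 0.14 to 0.71 on leaving out single libraries), and without both replicate 1 libraries it was 0.26 (SE 0.13, limma adjusted p = 0.226). The stearoyl-CoA desaturases, which place the first double bond, differed in level. Scd2 was the most abundant of the 28 per length, at 220, 354 and 415 RPKM with the control hairpin against 255, 202 and 307 RPKM with the HSF1 hairpin. It was lower than its control in pairs 2 and 3 by 0.81 and 0.43 on the log2 scale and higher in pair 1 by 0.21 (log2 difference −0.34, SE 0.28, limma adjusted p = 0.721). Scd1 was at 26.8, 17.7 and 24.3 RPKM with the control hairpin against 21.4, 15.6 and 22.4 RPKM with the HSF1 hairpin, a log2 difference of −0.20 (SE 0.22). Scd1 (chromosome 19, 44394450 to 44407709, minus strand) and Scd2 (44293676 to 44306862, plus strand) are close copies, and how reads common to both were counted is not stated.

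Other genes of lipid metabolism were read from 6 lists. None of their members passed over all genes, with or without the replicate block, and 7 of the 76 tested (of 81 listed) had an unadjusted p under 0.05 without it, beside 11.4% of all genes tested. Without both replicate 1 libraries 8 of the 76 passed, 6 higher and 2 lower in shHSF1, beside 11.1% of all genes tested. The steps that feed and follow fatty acid synthesis held 3 of these. Slc25a1, the mitochondrial citrate carrier that supplies Acly, was at 13.9, 12.6 and 14.2 RPKM with the control hairpin against 23.8, 23.3 and 27.6 RPKM with the HSF1 hairpin. The groups did not overlap and differed by 0.85 on the log2 scale (SE 0.13, limma adjusted p = 0.112; limma adjusted p = 0.0182 without both replicate 1 libraries). Elovl6, which extends palmitate, was at 27.5, 29.5 and 35.7 RPKM with the control hairpin against 16.5, 16.6 and 22.6 RPKM with the HSF1 hairpin, lower in all 3 pairs (−0.73, SE 0.18, limma adjusted p = 0.220; limma adjusted p = 0.0490 without both replicate 1 libraries, and 0.0489 with voom and the replicate block). Acsl5, a long-chain acyl-CoA synthetase, was at 160, 164 and 173 RPKM with the control hairpin against 100, 116 and 123 RPKM with the HSF1 hairpin (−0.55, SE 0.13, limma adjusted p = 0.199; limma adjusted p = 0.0295 without both replicate 1 libraries). For these 3 genes the mean of replicates 2 and 3 was 0.963-fold to 1.19-fold the replicate 1 value. Among the 28 genes this ratio ran from 0.698 (Insig1 in shHSF1) to 9.82 (Idi1 in shCTL). Some of the 28 were steady too, such as Tm7sf2 at 0.917 in shCTL and 0.881 in shHSF1. Elovl6 was chosen after its values were seen.

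In the isoprenoid branch, which uses farnesyl diphosphate for other ends, Rabggta, a subunit of Rab geranylgeranyl transferase, was at 4.78, 5.87 and 7.21 RPKM with the control hairpin against 12.8, 10.2 and 10.6 RPKM with the HSF1 hairpin (0.87, SE 0.19, limma adjusted p = 0.186; limma adjusted p = 0.0373 without both replicate 1 libraries). Nus1, a subunit of the dolichol-making transferase, had 0.23 (SE 0.14). Among genes of SREBP processing and sterol sensing, the NF-Y subunits Nfyb and Nfyc had log2 differences of 0.37 (SE 0.14, limma adjusted p = 0.378) and −0.40 (SE 0.19, limma adjusted p = 0.5002). For sterol storage, trafficking and efflux, Npc2, which binds cholesterol in lysosomes, had −0.45 (SE 0.26) and Stard3, which moves it between membranes, had 0.31 (SE 0.25). Lipa, the lysosomal acid lipase, was named after its values were seen: it had 0.24 (SE 0.32, limma adjusted p = 0.856) over 6 libraries and 0.67 (SE 0.16, limma adjusted p = 0.0493) without both replicate 1 libraries. In glycerolipid synthesis Lpin1, a phosphatidate phosphatase, had 0.41 (SE 0.16, limma adjusted p = 0.387) and the acyltransferase gene Agpat3 had 0.21 (SE 0.12). In fatty acid oxidation Acadvl, the very-long-chain acyl-CoA dehydrogenase, was at 32.7, 18.6 and 16.3 RPKM with the control hairpin against 43.6, 35.4 and 30.7 RPKM with the HSF1 hairpin, higher in all 3 pairs (0.74, SE 0.28, limma adjusted p = 0.394; limma adjusted p = 0.0163 without both replicate 1 libraries). Hadhb, a subunit of the trifunctional protein, had 0.34 (SE 0.15, limma adjusted p = 0.461).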

How the data were processed

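RNA of 4T1 cells (RNeasy extraction and the KAPA mRNA HyperPrep kit, per the labels' protocols) was sequenced in 6 libraries. Reads were aligned with STAR to mm10 and counted with featureCounts, per the submitters' processing notes. The versions and settings for strand and ambiguous reads were not given in the sources used. The authors deposited 1 table of RPKM values, whose columns include gene lengths. Undoing the scaling by length and by each library's step gave whole reads for 100% of values (tolerance 0.001 reads), so depth is known. Of 24421 genes, 27 had symbols turned into dates and were kept.

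Groups follow the sample titles. The test was limma 3.58.1 (R 4.3.3) on log2(RPKM + 0.5) with a variance trend, over the 11386 genes with at least 0.5 RPKM in 3 libraries, two-sided, with Benjamini-Hochberg adjustment over all of them at 0.05. A pseudocount understates changes of low genes. Same-numbered libraries deviated together (correlations of deviations from group means 0.58, 0.18 and 0.68), so by the rule used (each over 0.1) the numbers were taken to pair the libraries. This rests on the data and not the labels, and replicates 2 and 3 were not singled out: shCTL replicate 2 with shHSF1 replicate 3 gave 0.51, and shCTL replicate 3 with shHSF1 replicate 2 gave 0.24. Alternatives were 0.1 and 1 RPKM pseudocounts, no filter or 1 RPKM, median-of-ratios and quantile scaling, no variance trend, voom, the replicate block, replicate 1 as a batch, and libraries left out. No 2 libraries agreed within sampling noise (lowest chi-square per degree of freedom 20.2). The fits were also run on simulated data with a random shift for each replicate number, unlike these data, where replicate 1 stood apart. No result here rests on that run. Floors and read numbers cover counting error only.

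All 28 genes, Hsf1 and the 2 genes of smallest p in each of 6 lists (SREBP processing and sterol sensing, sterol storage and efflux, the isoprenoid branch, fatty acid supply and elongation, glycerolipid synthesis, fatty acid oxidation) are named. Genes and lists were chosen with earlier results of these data known.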

Additional observations from a re-analysis of the deposited data

How the results depend on the processing

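None of the 28 genes passed under any of the 18 alternatives, where their lowest limma adjusted p was 0.0814 (Fdft1, without both replicate 1 libraries). The filters on low values, no variance trend, the replicate block and replicate 1 as a batch covariate cannot change a log2 difference here. Under these the direction was kept by design. Of 504 values of a gene under an alternative, 438 kept their direction and 66 turned, 45 of these on leaving out a single library. Pmvk, Fdft1, Tm7sf2, Ebp, Acly, Scd1 and Scd2 kept theirs in all 18, but on leaving out single libraries ranged over 0.048 to 0.47, 0.12 to 0.61, 0.31 to 0.47, 0.098 to 0.36, 0.14 to 0.71, −0.38 to −0.046 and −0.61 to −0.15 in that order. The number of genes passing over the whole table was 18 with no filter on low values, 22 with no variance trend, 11 with voom on whole reads, 1262 without both replicate 1 libraries and 642 with replicate 1 as a batch covariate, beside 3. With the replicate block it was 20, and 106 with voom and the block. Leaving out 1 library gave 0 to 8, with 0 without shCTL replicate 2 and without shHSF1 replicate 2 (771 and 778 at an unadjusted p under 0.05). The cause of these differences was not tested.

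Leaving out 1 library moved the median of the 28 between −0.25 and 0.41, and the Hsf1 difference between −0.42 and −0.049; without both replicate 1 libraries Hsf1 was −0.46. Pseudocount 1 turned Idi1 to −0.034. Median-of-ratios scaling turned Idi1 to −0.047, Msmo1 to −0.047, Hsd17b7 to −0.012 and Scap to −0.056. Quantile normalization turned Idi1 to −0.093, Msmo1 to −0.011, Hsd17b7 to −0.073 and Scap to −0.055. Voom on whole reads with the replicate block turned Idi1 to −0.21, Msmo1 to −0.050, Hsd17b7 to −0.11 and Scap to −0.012. Leaving out both replicate 1 libraries turned Idi1 to −0.40, Fdps to −0.032, Cyp51 to −0.11, Msmo1 to −0.44, Hsd17b7 to −0.34, Scap to −0.17, Acaca to −0.050 and Fasn to −0.24. The cause was not tested. Of the other lipid lists, none had a gene passing on leaving out single libraries; without both replicate 1 libraries 1 gene passed in sterol storage, 1 in the isoprenoid branch, 3 in fatty acid supply and 3 in fatty acid oxidation. With replicate 1 as a batch covariate these counts were 0, 1, 3 and 1, and with voom and the replicate block 1 gene of fatty acid supply passed (Elovl6). On leaving out each library in turn the log2 differences spanned Acat2 −0.28 to 0.87, Hmgcs1 −0.25 to 0.68, Mvk −0.26 to 0.20, Mvd −0.34 to 0.10, Idi1 −0.91 to 0.59, Fdps −0.51 to 0.93, Sqle −0.74 to 0.13, Lss −0.15 to 0.44, Cyp51 −0.65 to 0.83, Msmo1 −0.67 to 0.46, Nsdhl −0.52 to 0.19, Hsd17b7 −0.71 to 0.44, Sc5d −0.13 to 0.36, Dhcr7 −0.24 to 0.15, Srebf1 −0.054 to 0.38, Srebf2 −0.29 to 0.52, Scap −0.32 to 0.17, Insig1 −0.29 to 0.0052, Stard4 −0.23 to 0.49, Acaca −0.087 to 0.49 and Fasn −0.33 to 0.48. With 3 libraries a group, and 2 without replicate 1, a missed threshold leaves wide intervals. Tm7sf2, the least abundant of the 28 per length, rested on 42 to 81 reads a library.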

Other observations

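Some genes outside the 28 shared or mirrored their replicate pattern, and these were chosen after their values were seen. Abca1, which exports cholesterol and is a known target of the sterol-sensing receptor LXR, was high in replicate 1: 3.42, 0.230 and 0.197 RPKM with the control hairpin against 1.87, 0.267 and 0.187 RPKM with the HSF1 hairpin. Replicate 1 was 16.0-fold and 8.25-fold the mean of replicates 2 and 3. Mylip, another LXR target, which marks lipoprotein receptors for degradation, was 3.82-fold and 2.55-fold higher there. Tmem97, a sterol-responsive membrane protein gene, was low there instead, at 4.66, 35.5 and 41.1 RPKM against 13.4, 33.0 and 54.4 RPKM. Fads2, a fatty acid desaturase, had 16.2, 68.3 and 81.1 RPKM against 21.7, 48.0 and 71.9 RPKM. Over the 76 tested genes of the other lipid lists, replicate 1 was below both other replicates in both groups for 18 and above both for 26, near the shares over all genes tested (25.0% and 36.6%).

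In fatty acid oxidation, 8 of the 11 tested genes were above replicates 2 and 3 in replicate 1 of both groups, beside 36.6% of all genes tested. Of that list, Acadvl, Hadhb and Acads passed without both replicate 1 libraries, each higher with the HSF1 hairpin (limma adjusted p = 0.0163, 0.0332 and 0.0463), that is 3 of 11 beside 7.04% of all genes tested. Over all 6 libraries no gene of that list passed with or without the replicate block, and 1 passed with replicate 1 as a batch covariate.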
